A study of Mus musculus with 6 samples.

Results

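The genes described here are 10 genes of MHC class II antigen presentation and costimulation, followed in unstimulated bone marrow-derived macrophages (BMDMs) with and without ATP-citrate lyase (Acly), the enzyme that makes cytosolic acetyl-CoA from citrate. They were chosen by name, by a rule that takes no measured value, although earlier results of these data were known: *H2-Aa*, *H2-Ab1*, *H2-Eb1*, *H2-DMa*, *Cd74*, *Ciita*, *Cd80*, *Cd86*, *Cd40* and *Cd274*. All 10 were found among the 24562 gene symbols of the count table, and all 10 had enough counts to be tested. Each gene was represented by the RefSeq transcript row with the highest total count, and gene positions below are those of GENCODE M21 on GRCm38 (mm10).

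The data were RNA-seq counts of 3 control and 3 Acly M-KO libraries, labelled naive, which were made to look for the processes that loss of Acly alters in macrophages. The mice were C57BL/6J, and the series text names females, whereas the study's methods describe marrow of both sexes, from mice 8 to 14 weeks old, for work in vitro. Acly M-KO mice were Acly fl/fl, with loxP sites around exon 9 of *Acly*, and carried Cre under the myeloid *Lyz2* gene. The control mice are labelled WT. The study describes its control marrow donors for transplantation as Acly fl/fl littermates without Cre, and if these BMDMs came from such mice, both groups carried the floxed alleles and differed in Cre as well as in Acly. Marrow was cultured for 7 days with L929-conditioned medium, a source of M-CSF. Legends of the study describe replicates of this kind as technical ones drawn from 3 pooled mice, and p-values then measure only the spread between libraries.

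MHC class II molecules present peptides from endocytosed proteins to CD4+ T cells. Their α and β chains assemble with the invariant chain Cd74 in the endoplasmic reticulum, and H2-DM exchanges the last invariant chain fragment for a peptide in the endosome. The coactivator Ciita, which binds no DNA itself, joins factors bound at the X and Y boxes of class II promoters. T cell priming also takes costimulation, in which CD80 and CD86 bind CD28 or CTLA-4, CD40 receives CD40L from T cells, and Cd274 (PD-L1) engages the inhibitory receptor PD-1. Macrophages carry this machinery at modest levels at rest and raise it in response to interferon-γ.

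The promoter stretches of *H2-Aa* and *H2-Eb1* are shown because these are the chains with the greatest differences between the groups and because the promoter boxes through which Ciita acts can be read in them. Each covers 250 bases that end at the annotated start, 5′ to 3′ on the gene's strand, from RefSeq on GRCm38.p6. *H2-Aa* is taken from chr17:34287824-34288073 (minus strand) and *H2-Eb1* from chr17:34305617-34305866 (plus strand). Capitals mark GCAAC, letters at the core of the X box, CTGATTGG, letters of the Y box, and in *H2-Aa* also TGACGTCA, the letters of a cAMP response element.
H2-Aa: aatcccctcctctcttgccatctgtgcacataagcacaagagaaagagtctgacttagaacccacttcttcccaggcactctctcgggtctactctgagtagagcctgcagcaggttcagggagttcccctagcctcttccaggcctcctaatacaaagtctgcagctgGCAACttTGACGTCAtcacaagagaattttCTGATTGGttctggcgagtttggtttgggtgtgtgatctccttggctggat
H2-Eb1: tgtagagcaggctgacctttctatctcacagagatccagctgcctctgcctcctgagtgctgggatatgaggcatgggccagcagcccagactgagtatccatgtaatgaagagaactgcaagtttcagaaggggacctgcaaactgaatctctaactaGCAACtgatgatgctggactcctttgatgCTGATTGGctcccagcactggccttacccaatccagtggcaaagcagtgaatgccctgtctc
In *H2-Aa*, GCAAC began 81, TGACGTCA 74 and CTGATTGG 51 bases before the start. In *H2-Eb1*, GCAAC began 91 and CTGATTGG 62 bases before it, and the first letters of both boxes were 30 bases apart in *H2-Aa* and 29 in *H2-Eb1*. The letters were chosen after these sequences were seen, and were searched on both strands of 32851 RefSeq promoter windows of 300 bases. GCAAC occurred in 35.2%, CTGATTGG in 4.10% and TGACGTCA, which reads the same on both strands, in 1.79% of all windows. GCAAC followed after 20 to 30 bases on the same strand by ATTGG, the last letters of CTGATTGG, occurred in 197 windows (0.600%). Besides *H2-Aa* and *H2-Eb1*, this pair was present in windows of the class II relatives *H2-Oa*, *H2-Ob* and *H2-Eb2*, which had at most 13 counts in any library, and absent from those of *H2-DMb1* and *H2-DMb2*. The windows of *H2-DMa*, *Cd80* and *Cd274* did not hold the pair, and promoters of *H2-Ab1*, *Cd74*, *Ciita*, *Cd86* and *Cd40* were not analysed here. A match is a description of letters and does not show that a factor binds.

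The libraries had total counts between 11120034 and 25814853 when each gene was represented once. Values are CPM, counts divided by a library size in units of 1e6 counts that the TMM method has scaled, and fold changes are log2 values of Acly M-KO over control with the standard error (SE). The test was the quasi-likelihood test of edgeR on the 11470 genes that passed the filter on low counts, and a gene was called at an adjusted p (Benjamini-Hochberg) of 0.05 or less. Over all tested genes, 12.3% passed, 5.65% with lower and 6.70% with higher expression in Acly M-KO, and the median log2 fold change was 0.00. With scaling by total counts alone, 919 genes passed as higher and 508 as lower, against 768 and 648 with TMM. The targeted gene *Acly* was 229.7 ± 8.18 CPM in control against 96.8 ± 3.06 CPM in Acly M-KO libraries (SD, n = 3 each), which is -1.25 on the log2 scale, and its counts cover the whole transcript and not exon 9 alone. *Lyz2*, the gene that carries the Cre insertion, fell by 1.05 on the log2 scale (adjusted p = 2.21e-05).

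The class II chains, *H2-DMa* and *Cd74* were expressed in Acly M-KO BMDMs at 51.4% to 66.9% of the control level, *Cd86* and *Cd274* at 80.3% and 82.1%, and *Cd40* was higher. Of the 10 genes, 7 fell and 1 rose past the threshold, which is 8 of 10 against the 12.3% of all tested genes. *H2-Aa*, *H2-Ab1*, *H2-Eb1*, *H2-DMa*, *Cd74*, *Cd86* and *Cd274* fell, *Cd40* rose, and *Ciita* and *Cd80* did not pass the test. At a threshold of 0.01, 4 of the 10 passed, against 4.86% of all tested genes. The median log2 fold change of the 10 genes was -0.61, and the values of Acly M-KO and control libraries did not overlap for any of them. Ranges that did not overlap were seen in 32.8% of all tested genes, 16.6% with Acly M-KO lower and 16.3% with Acly M-KO higher. The count of genes past the threshold dropped to 4, 5 and 4 without control replicate 1, 2 and 3, respectively, while that over all genes dropped from 1416 to 598, 658 and 628. In these bulk samples, fewer cells of a type and less RNA per cell cannot be told apart.

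**Figure D1:**
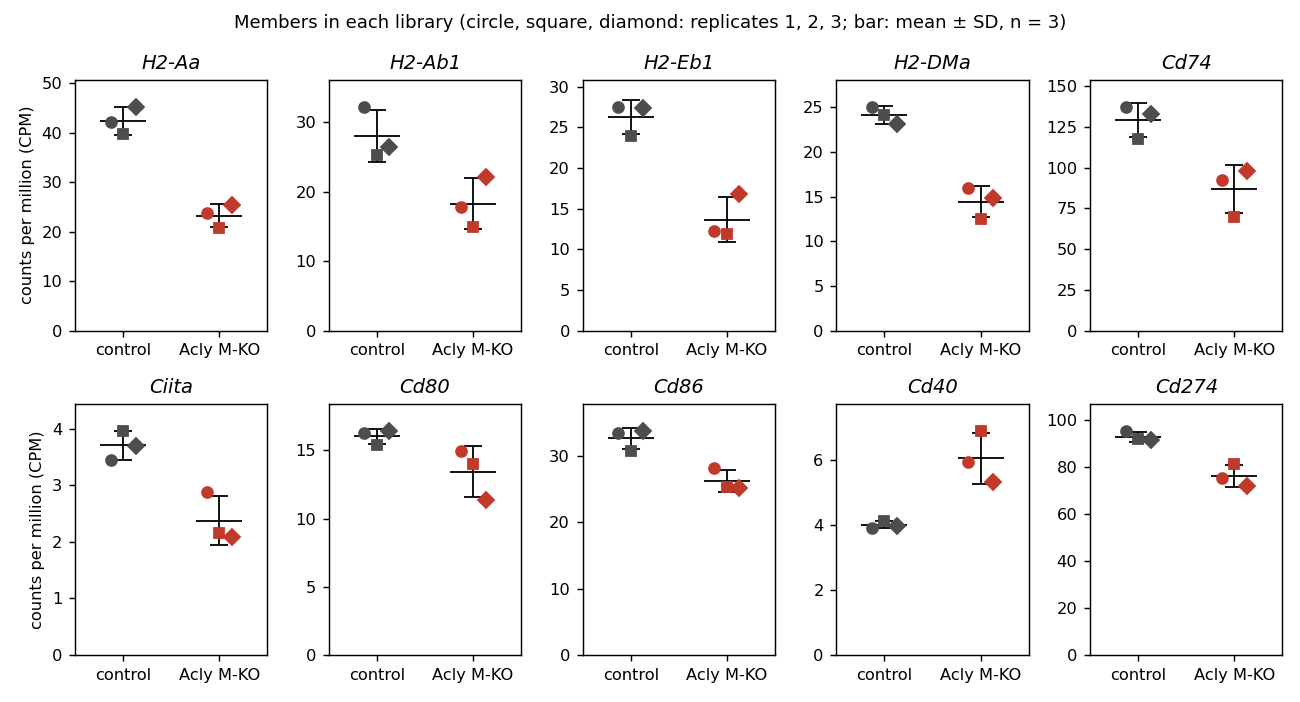
Expression of the 10 genes in each library, in CPM on a linear axis that starts at 0, with a panel per gene. Circles, squares and diamonds are replicates 1, 2 and 3 of each group, horizontal lines the group means and error bars 1 SD. Acly M-KO points lie below the control points for 9 genes and above them for Cd40.

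The α chain of I-A, *H2-Aa* (NM_010378, chromosome 17, 34282744 to 34287823), was 42.2, 39.7 and 45.3 CPM in control replicates 1, 2 and 3. In Acly M-KO replicates 1, 2 and 3 it was 23.7, 20.8 and 25.3 CPM. The highest Acly M-KO library thus stayed well below the lowest control library, and libraries of a group lay close together. The means were 42.4 ± 2.81 CPM and 23.3 ± 2.27 CPM (SD, n = 3 each), so that Acly M-KO libraries had 54.5% of the control level. The log2 fold change was -0.87 (SE 0.10, 95% confidence interval -1.10 to -0.65, adjusted p = 3.26e-04).

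Its partner in I-A, the β chain *H2-Ab1* (NM_207105, chromosome 17, 34263227 to 34269418), was 32.3, 25.3 and 26.4 CPM in control against 17.8, 15 and 22.2 CPM in Acly M-KO replicates 1, 2 and 3. Control replicate 1 stood above the other control libraries and Acly M-KO replicate 3 above the other Acly M-KO libraries, and of the 3 chains this one had the groups closest together. The mean fell from 28.0 ± 3.74 to 18.3 ± 3.63 CPM, a log2 fold change of -0.63 (SE 0.15, interval -0.96 to -0.31, adjusted p = 0.0175). The adjusted p was 0.0959 without control replicate 1 and 0.0534 without control replicate 3.

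*H2-Eb1* (NM_010382, chromosome 17, 34305867 to 34316674) encodes the β chain of I-E, a molecule that C57BL/6 mice do not bring to the cell surface because they lack a functional I-E α chain gene. Control libraries had 27.6, 23.9 and 27.3 CPM and Acly M-KO libraries 12.3, 11.8 and 16.8 CPM. Acly M-KO replicate 3 was the highest of its group, and no Acly M-KO library reached the control range. At a mean of 26.3 ± 2.04 against 13.6 ± 2.77 CPM, this gene had the lowest log2 fold change of the 10, -0.96 (SE 0.14, interval -1.27 to -0.65, adjusted p = 0.00153), and Acly M-KO libraries kept 51.4% of the control level.

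*H2-DMa* (NM_010386, chromosome 17, 34119693 to 34139101), the α chain of the peptide exchange factor H2-DM, was 25.1, 24.1 and 23.1 CPM in control against 16.0, 12.5 and 14.8 CPM in Acly M-KO replicates 1, 2 and 3. The control libraries were nearly equal, and all Acly M-KO libraries lay clearly below them. The mean fell from 24.1 ± 1.0 to 14.5 ± 1.77 CPM (log2 fold change -0.75, SE 0.12, adjusted p = 0.00205). Exons of *H2-DMa* overlap those of *Brd2* on the opposite strand by up to 360 bases, and reads there are uncertain, since the counting was run at default settings and the strand it took is not spelled out in the sources used here. *Brd2* itself, which encodes a bromodomain protein, rose from 254.6 ± 9.43 to 315.9 ± 7.55 CPM (adjusted p = 0.00807).

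*Cd74* (NM_001042605, chromosome 18, 60803849 to 60812652), the invariant chain that guards the class II groove, was the most abundant of the 10 transcripts. It was 137.6, 117.5 and 133.0 CPM in control against 92.7, 69.9 and 98.2 CPM in Acly M-KO replicates 1, 2 and 3. Acly M-KO replicate 2 was the lowest library by a wide margin, and the others of its group still lay below all controls. The mean fell from 129.4 ± 10.5 to 86.9 ± 15 CPM (log2 fold change -0.58, SE 0.12, interval -0.83 to -0.33, adjusted p = 0.00766). A second transcript row of *Cd74* (NM_010545) shares most of these reads, with 1462, 1497 and 1419 counts in control against 1017, 1780 and 1096 in Acly M-KO libraries of unequal depth.

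*Ciita* (NM_001243760, chromosome 16, 10480014 to 10531064), the coactivator of class II promoters, had the fewest reads, with 38, 53 and 41 counts in control against 33, 57 and 24 counts in Acly M-KO replicates 1, 2 and 3. In CPM these were 3.46, 3.96 and 3.70 CPM against 2.87, 2.15 and 2.09 CPM. The lowest control library was thus above the highest Acly M-KO library, at means of 3.71 ± 0.25 and 2.37 ± 0.43 CPM. The log2 fold change of -0.66 (SE 0.22, interval -1.14 to -0.19) did not pass the threshold (adjusted p = 0.0672), and over 15 alternative settings its adjusted p was between 0.0189 and 0.212. The 5 transcript rows of *Ciita*, which include forms with different first exons, shared nearly all reads, between 243 and 246 counts in total each, so that promoter usage could not be resolved. Its exons overlap *Dexi* on the opposite strand by up to 329 bases, and *Dexi* had no call (log2 fold change 0.09, adjusted p = 0.798).

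**Figure D2:**
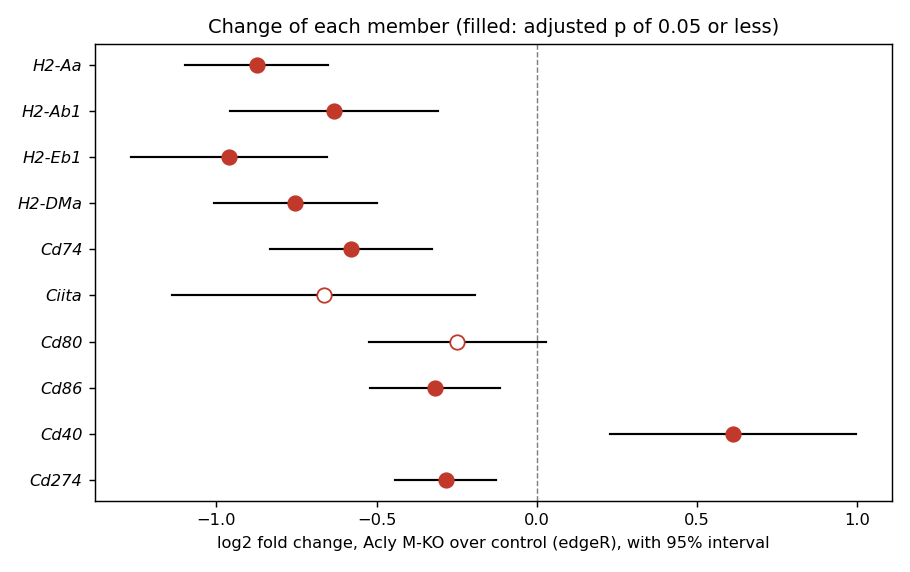
Log2 fold change of each of the 10 genes, Acly M-KO over control, with its 95% confidence interval. Filled symbols passed the threshold on edgeR's adjusted p and open symbols did not. The 5 class II chain, loading and invariant chain genes lie between -0.96 and -0.58, and the 4 costimulation genes between -0.32 and 0.61.

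Of the 4 costimulation genes, *Cd86* and *Cd274* fell, *Cd40* rose and *Cd80* had no call. *Cd86* (NM_019388, chromosome 16, 36568956 to 36666158), a B7 ligand that resting antigen-presenting cells already carry, was 33.4, 30.7 and 33.7 CPM in control against 28.1, 25.3 and 25.2 CPM in Acly M-KO replicates 1, 2 and 3. The groups were narrow, and the highest Acly M-KO library came near the lowest control library. The mean fell from 32.6 ± 1.65 to 26.2 ± 1.66 CPM (log2 fold change -0.32, SE 0.09, adjusted p = 0.0465). This call held in 6 of 15 alternatives, with adjusted p from 0.0220 to 0.173. The call was lost without control replicate 1, 2 or 3 (adjusted p = 0.168, 0.0906 and 0.173) and without Acly M-KO replicate 3 (0.111).

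The other B7 ligand, *Cd80* (NM_009855, chromosome 16, 38457430 to 38495958), was 16.3, 15.4 and 16.4 CPM in control against 15, 14 and 11.3 CPM in Acly M-KO replicates 1, 2 and 3. Acly M-KO replicate 1 came close to control replicate 2, and replicate 3 was the lowest. With means of 16.0 ± 0.56 and 13.4 ± 1.88 CPM, the log2 fold change was -0.25 (SE 0.13, interval -0.52 to 0.03, adjusted p = 0.235). It passed in none of the 15 alternatives (adjusted p from 0.0871 to 0.485).

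*Cd40* (NM_011611, chromosome 2, 165055614 to 165071654), the receptor through which helper T cells activate macrophages, had 43, 55 and 44 counts in control against 68, 182 and 61 counts in Acly M-KO replicates 1, 2 and 3. Scaled to depth these were 3.91, 4.11 and 3.97 CPM and 5.92, 6.88 and 5.32 CPM. All Acly M-KO libraries were above the controls, which hardly varied, and Acly M-KO replicate 2, the deepest library, was the highest. The mean rose 1.53-fold, from 4.0 ± 0.10 to 6.04 ± 0.78 CPM (log2 fold change 0.61, SE 0.18, interval 0.23 to 1.0, adjusted p = 0.0417). The call held in 8 of 15 alternatives, and DESeq2 gave an adjusted p of 0.109. Of these 8, 1 was the edgeR test with rows summed (adjusted p = 0.00743), where the same reads are counted up to 5 times. It was lost without control replicate 1, 2 or 3 (adjusted p = 0.140, 0.119 and 0.13), without Acly M-KO replicate 1 (0.0532) and without Acly M-KO replicate 2 (0.0979). Its 5 transcript rows had between 422 and 453 counts in total and could not be separated.

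*Cd274* (NM_021893, chromosome 19, 29362107 to 29388095), the ligand of PD-1, was the most abundant of the costimulation genes. It was 95.4, 91.9 and 91.6 CPM in control against 75.2, 81.2 and 72.2 CPM in Acly M-KO replicates 1, 2 and 3. Here Acly M-KO replicate 2 was the nearest to the controls, while no value crossed into the other group. The mean fell from 93.0 ± 2.11 to 76.2 ± 4.62 CPM (log2 fold change -0.28, SE 0.07, adjusted p = 0.0254). The call held in 10 of 15 alternatives, and was lost without control replicate 1, 2 or 3 (adjusted p = 0.121, 0.0916 and 0.0834) and without Acly M-KO replicate 3 (0.0788). An antisense gene (AC119228.1) overlaps its exons by up to 511 bases.

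*H2-Aa*, *H2-Eb1*, *H2-DMa* and *Cd74* passed the threshold in all 15 alternatives. No gene of the 10 changed sign in any alternative. Acly M-KO replicate 2 was the lowest library for *H2-Aa*, *H2-Ab1*, *H2-Eb1*, *H2-DMa* and *Cd74*, and the highest of its group for *Cd40* and *Cd274*. Acly M-KO replicate 3 was the highest of its group for *H2-Aa*, *H2-Ab1*, *H2-Eb1* and *Cd74* and the lowest for *Ciita*, *Cd80*, *Cd86*, *Cd40* and *Cd274*. Between these 2 libraries, the 3 class II chains, *H2-DMa* and *Cd74* were thus ordered oppositely to *Cd40*. *Ciita* was nearly equal in Acly M-KO replicates 2 and 3, at 2.15 and 2.09 CPM from 57 and 24 counts. Without Acly M-KO replicate 2, the log2 fold changes of the 3 class II chains, *H2-DMa* and *Cd74* were between -0.85 and -0.43, and all 5 passed the threshold.

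**Figure D3:**
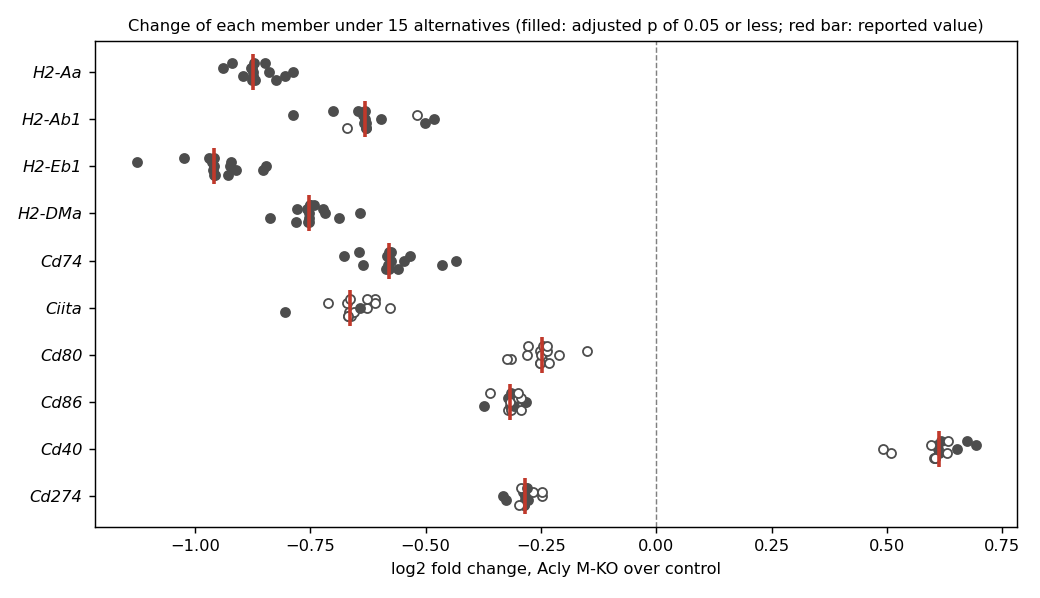
Log2 fold change of each of the 10 genes under every alternative setting, with the reported value as a red bar. Filled points passed the threshold and open points did not. The sign is the same under every setting for every gene, and H2-Aa, H2-Eb1, H2-DMa and Cd74 passed in all 15.

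Levels were compared between genes only after division by transcript length, as CPM per kilobase. In control BMDMs the order was *Cd74* (91.7 ± 7.47), *H2-Aa* (37.6 ± 2.49), *Cd274* (25.7 ± 0.58), *H2-Ab1* (23.1 ± 3.08), *H2-Eb1* (15.7 ± 1.22), *H2-DMa* (14.5 ± 0.60), *Cd86* (12.8 ± 0.65), *Cd80* (9.42 ± 0.33), *Cd40* (1.34 ± 0.03) and *Ciita* (0.87 ± 0.06), each in CPM per kilobase as mean ± SD of 3 libraries. Neighbours in this order overlapped for *Cd274* with *H2-Ab1* and for *H2-Eb1* with *H2-DMa*, and the others did not. The median of 11253 tested genes with a length was 9.57 CPM per kilobase, so that *Cd74* exceeded 94.3% of these genes and *Ciita* 8.06%. In Acly M-KO libraries *Cd274* (21 ± 1.28 CPM per kilobase) stood after *Cd74* (61.7 ± 10.6) and overlapped *H2-Aa* (20.6 ± 2.01), and *H2-DMa* (8.72 ± 1.06) lay below *Cd86* (10.3 ± 0.65) without overlap. *H2-Eb1* (8.18 ± 1.66) had a lower mean than *Cd86* but overlapped it.

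**Figure D4:**
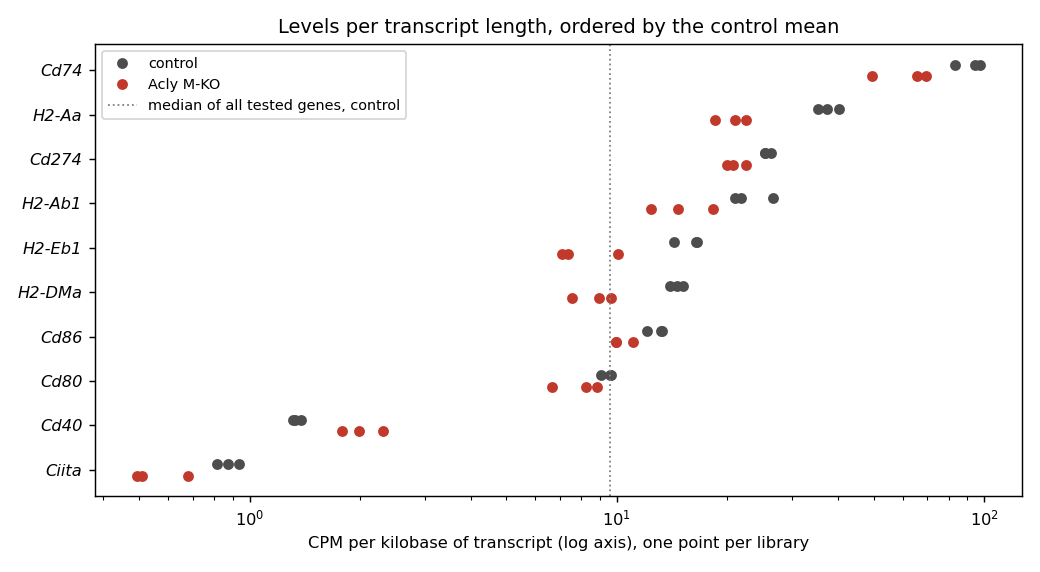
Levels of the 10 genes in CPM per kilobase of transcript on a log axis, ordered by the control mean. Points are libraries of the control and Acly M-KO groups, and the dotted line is the control median of all tested genes. Cd74 lies highest, at 91.7 CPM per kilobase in control, and Ciita lowest, at 0.87.

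Ratios of these levels within a library were compared for 6 pairs of partners. The exact two-sided permutation test of 3 against 3 libraries cannot give a p below 0.10, so that no ratio could pass the threshold. *Cd40* to *Cd86* was 0.104 ± 0.008 in control against 0.197 ± 0.030 in Acly M-KO libraries (exact p = 0.10, adjusted 0.30), without overlap. *Cd74* to *H2-Aa* was 2.44 ± 0.14 and 2.97 ± 0.25, also without overlap (exact p = 0.10, adjusted 0.30). The I-A chains overlapped in their ratio, with *H2-Ab1* to *H2-Aa* at 0.616 ± 0.087 and 0.727 ± 0.077 (exact p = 0.30). *H2-Eb1* to *H2-Aa* (0.419 and 0.395), *Cd86* to *Cd80* (1.36 and 1.32) and *Cd274* to *Cd86* (2.0 and 2.04) overlapped as well, with exact p between 0.50 and 0.80.

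Of 14 other genes of class II assembly, peptide loading and turnover 10 were tested. Of these 10, 2 fell and none rose, against 12.3% called over all tested genes. The median log2 fold change was -0.09, against 0.00 over all genes. *Marchf1*, a ubiquitin ligase that sends class II and CD86 for degradation, fell from 141.0 ± 9.0 to 90.3 ± 6.49 CPM (log2 fold change -0.65, adjusted p = 4.60e-04). *Ctss*, the cathepsin S protease that trims the invariant chain, fell from 3095 ± 115.5 to 2575 ± 78.3 CPM (log2 fold change -0.27, adjusted p = 0.0195). *H2-DMb1*, the H2-DM β chain, named after its value was seen, had 28.7 ± 2.48 and 23 ± 1.16 CPM and did not pass (log2 fold change -0.32, adjusted p = 0.0588). *H2-DMb2*, *H2-Oa*, *H2-Ob* and *H2-Eb2* had at most 14 counts in any library and were not tested.

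Of 16 transcription factors that act on class II genes or on *Ciita*, all tested, 2 fell and none rose, a share near the 12.3% of all tested genes, with a median of -0.12. *Irf8*, a myeloid interferon regulatory factor, was 290.8, 268.8 and 278.6 CPM in control against 214.1, 162.5 and 196.7 CPM in Acly M-KO replicates 1, 2 and 3. Acly M-KO replicate 2 was the lowest, as it was for the class II chains, and all Acly M-KO libraries lay below the controls. The log2 fold change was -0.55 (SE 0.09, adjusted p = 0.00326). *Usf1*, a helix-loop-helix factor that binds the *Ciita* promoter, fell from 47.5 ± 0.22 to 35.8 ± 4.51 CPM (log2 fold change -0.42, adjusted p = 0.0193). *Rfx5*, an X box binding factor, had 20.4 ± 1.59 and 18.3 ± 1.36 CPM (log2 fold change -0.17, adjusted p = 0.360).

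Interferon-γ receptor signalling, the pathway that induces *Ciita*, had 10 of 11 genes tested, of which 1 fell and none rose (median -0.11). This share is near the 12.3% of all tested genes. The gene that fell was *Ifngr1*, the ligand-binding chain of the receptor, at 250.2, 242.2 and 249.3 CPM in control against 177.9, 167.1 and 173.1 CPM in Acly M-KO replicates 1, 2 and 3. Both groups were tight and far apart relative to their spread. The log2 fold change was -0.52 (SE 0.06, adjusted p = 4.41e-04). *Irf1*, a transcription factor that interferon-γ induces, did not pass (log2 fold change -0.30, adjusted p = 0.112).

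Among other costimulatory and coinhibitory ligands, 15 of 19 listed genes were tested, 3 fell and 1 rose, with a median of 0.07. These are 4 calls of 15, against 12.3% of all tested genes. *Vsir* (VISTA), a coinhibitory ligand of myeloid cells, fell from 599.5 ± 18.1 to 439.3 ± 81.5 CPM (log2 fold change -0.45, adjusted p = 0.0229). *Nectin2*, a ligand of CD226 and TIGIT, fell from 11.7 ± 1.0 to 7.28 ± 1.44 CPM (log2 fold change -0.72, adjusted p = 0.0176), and *Tnfrsf14* (HVEM), a ligand of BTLA, from 16.0 ± 1.11 to 11.6 ± 1.97 CPM (-0.48, adjusted p = 0.0487). *Tnfsf18*, the ligand of GITR, rose (log2 fold change 1.67, adjusted p = 0.0136) from 8, 9 and 4 counts in control to 16, 63 and 19 counts in Acly M-KO libraries, and was too low to be tested where 10 counts were required in every library. In CD40 signalling, 1 of 13 tested genes fell and none rose (median -0.11), against 12.3% called over all tested genes. The gene that fell was *Birc3*, an inhibitor of apoptosis bound to TRAF2, from 47.8 ± 2.77 to 36.3 ± 5.29 CPM (log2 fold change -0.41, adjusted p = 0.0340).

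The MHC class I pathway, which presents peptides of the cytosol to CD8+ T cells, was followed for comparison. Of its 20 genes, all tested, 1 fell and none rose, against 12.3% called over all tested genes, with a median of -0.07. *H2-T23*, which encodes the non-classical Qa-1, fell from 116.0 ± 7.69 to 94.6 ± 4.03 CPM (log2 fold change -0.29, adjusted p = 0.0243). Named after their values were seen, the classical heavy chain *H2-K1* (1194 ± 33.3 and 1184 ± 74.3 CPM), the light chain *B2m* and *Nlrc5*, the class I relative of *Ciita*, had log2 fold changes of -0.01, -0.16 and -0.07 (adjusted p = 0.931, 0.156 and 0.681). The 6 lists of related genes had 11 calls among 84 tested entries (13.1%), a share near the 12.3% of all tested genes, and 4 calls without control replicate 1, 2 or 3. Reads of closely related MHC genes are uncertain because alignments of low mapping quality were removed.

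Most markers of B cells and dendritic cells, which also carry class II, were near 0. In the B cell list, *Pax5* and *Ebf1* had no count in any library, and 7 of 8 genes had at most 10 counts in every library. Its summed level was 3.52 to 4.78 CPM in control against 2.34 to 4.09 CPM in Acly M-KO libraries. In the dendritic cell list, 7 of 10 genes had at most 10 counts in every library, and its sum was 17.2 to 22.4 CPM in control against 22.6 to 31.6 CPM in Acly M-KO. Most of this sum was the integrin *Itgax* (CD11c), with a log2 fold change of 0.53 (adjusted p = 0.0629). *Batf3*, the only other marker of this list that could be tested, was 1.66 ± 0.13 CPM in control libraries and 0.87 ± 0.45 CPM in those of Acly M-KO, without overlap and without a call (log2 fold change -1.03, adjusted p = 0.0902). The macrophage list, all 8 genes present, summed to 8828 to 9011 CPM in control against 7200 to 8450 CPM in Acly M-KO libraries. Of these 8 markers 3 fell, against 5.65% of all tested genes, and none rose, among them the M-CSF receptor *Csf1r* (log2 fold change -0.48, adjusted p = 0.0391) and the efferocytosis receptor *Mertk* (-0.67, adjusted p = 0.00202). Like the class II chains, *Csf1r* and *Mertk* were lowest in Acly M-KO replicate 2. The part of these differences in the class II values was not tested.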

How the data were processed

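RNA-seq was performed on 3 control and 3 Acly M-KO BMDM libraries. The authors prepared strand-specific mRNA libraries, aligned reads to mm10 with STAR 2.5.2b, kept alignments with a mapping quality over 15 (SAMtools 1.3.1) and deposited raw counts per RefSeq transcript from HOMER2, without normalization or pooling. HOMER2 was run at default settings, and the RefSeq release is not given in the sources used here. Of 12 deposited value columns, 6 belonged to these libraries, and 6 were not used.

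Of 35745 rows, a RefSeq table named 35440 and GENCODE M21 a further 188, and 117 rows kept their accession. The row with the highest total represented a gene, because reads on shared exons can be counted in several rows. The counts were tested with edgeR 4.0.16 under R 4.3.3 (TMM, filterByExpr, quasi-likelihood test, genotype only), with Benjamini-Hochberg adjustment over 11470 genes. The SE came from the F statistic. The biological coefficient of variation of edgeR was 8.90%, which measures only the spread between libraries if these are technical replicates. Transcript lengths were those of GENCODE M21, and promoter windows were those of RefSeq (GRCm38.p6).

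The 10 genes and the lists were chosen with earlier results of these data known. Named in the text are the 10 genes, up to 6 genes past the threshold per list, *Acly* and *Lyz2*, and markers past the threshold or at 0 counts, besides *Brd2* and *Dexi* as overlapping genes and, named after their values were seen, *H2-DMb1*, *H2-K1*, *B2m*, *Nlrc5*, *Rfx5*, *Irf1*, *Itgax*, *Batf3*, *Ltf*, *S100a9* and *S100a8*. The 15 alternatives per gene were the tool DESeq2 1.42.0, size factors of the RLE kind, total counts, no filter, a stricter filter (10 counts or more in each library), a replicate block, voom with sample weights from limma 3.58.1, rows summed per symbol, each library left out, and random thinning of the deepest library, Acly M-KO replicate 2, to 11755127 counts, which was chosen after seeing the data. Some items are withheld, and their values are not reported here. A threshold of 0.01 was tried for the counts of genes.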

Additional observations from a re-analysis of the deposited data

How the results depend on the processing

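The 10 genes gave 8 calls, the related lists 11 and all genes 1416. At a threshold of 0.01 these counts were 4, 3 and 557, and limma-voom gave 19 calls in the lists and 2187 over all genes. Leaving out each library gave 4 to 8 calls among the 10 genes, 4 to 18 in the lists and 598 to 2136 over all genes. The lists had 4 calls without each of control replicate 1, 2 and 3, and 18 without Acly M-KO replicate 2. All genes gave 598, 658 and 628 calls without control replicate 1, 2 and 3, and 2136 without Acly M-KO replicate 2. The cause was not tested. With 1 library left out, the test has fewer samples. DESeq2 called 6 of the 10 genes, all lower. Of 150 values of single genes under alternatives, 125 kept their direction and their side of the threshold, 23 fell short of it and 2 newly passed it. The latter were both *Ciita*, without Acly M-KO replicate 1 (adjusted p = 0.0407) and with rows summed (0.0189), where the same reads are counted up to 5 times. With the replicate number as a block, 7 of the 10 genes, 13 list genes and 1583 of all genes passed, and *Cd86* had an adjusted p of 0.0529. Same-numbered libraries were not treated as pairs, since the correlations of their deviations from the group means were 0.10, 0.13 and -0.06, and not every library correlated best with its own number. Other scalings moved the median of all genes by at most 0.04 (log2). Low counts limit *Ciita*, *Cd40*, *Tnfsf18* and *Lat*.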

Other observations

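Markers of other blood and stromal cells were measured in the same libraries. In the T cell list, *Cd3e* and *Cd3g* were at 0 in every library, and 5 of 8 genes had at most 10 counts. *Cd4*, the coreceptor that binds class II and is also carried by some myeloid cells, fell from 60.8 ± 4.69 to 41.8 ± 8.33 CPM (edgeR, log2 fold change -0.55, adjusted p = 0.0160), and the list summed to 59.5 to 67.4 CPM in control and 37.6 to 54.5 CPM in Acly M-KO libraries. The adaptor *Lat* rose from 0.91 ± 0.23 to 2.20 ± 0.44 CPM (adjusted p = 0.0231). In the neutrophil list, 4 of 8 genes had at most 10 counts in every library, and the G-CSF receptor *Csf3r* fell from 80.1 ± 5.14 to 52.9 ± 8.04 CPM (adjusted p = 0.00439), with sums of 98.4 to 104.6 CPM and 66.5 to 78.8 CPM, of which *Csf3r* was the greater part. The other tested genes of this list, *Ltf*, *S100a9* and *S100a8*, had no call, with log2 fold changes of 0.31, 0.15 and -0.20. In the fibroblast list, *Col3a1*, *Pdgfra* and *Lum* were at 0, and the sum was 0.18 to 0.52 CPM in control and 0.17 to 0.72 CPM in Acly M-KO libraries.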
